A study of Bos taurus with 16 samples.

Results

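The extracellular matrix genes considered here are collagens, basement membrane proteins, matrix glycoproteins, their cross-linking enzymes and proteases, and the integrin subunits that bind cells to them. They were taken as every row of the count table whose Ensembl ID could be paired with a symbol of the collagen, laminin, integrin, thrombospondin, ADAMTS, MMP, fibulin, fibrillin, LOX-like or TIMP families, or with FN1, TNC, TNXB, SPARC, HSPG2, NID1, NID2 or LOX. This gave 36 genes of the 27607 in the table, of which 4181 could be named. Polyadenylated RNA of the right liver lobe and of the left semitendinosus muscle had been sequenced in 8 Holstein bull calves, which makes 16 libraries. The IVP group (in vitro production) was 4 calves whose embryos came from ovum pick-up, in vitro fertilization and serum-free culture, and the MOET group (multiple ovulation and embryo transfer) was 4 calves whose embryos were flushed from superovulated cows. Recipient cows carried all of them. The calves were 98 to 104 days old at sampling, except MOET calf 3213 at 144 days. The 4 IVP calves and MOET calves 3217 and 3218 had the same donor cow, and IVP calves 3208 and 3209 also shared their sire with these MOET calves. MOET calves 5932 and 3213 came from another cow, so embryo origin and parents are partly confounded.

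Fibrillar collagens give a tissue its tensile frame, and basement membranes of laminin, nidogen and perlecan underlie epithelia and sheathe vessels and muscle fibres. Fibronectin, tenascins, thrombospondins and fibrillins organise this frame, lysyl oxidases cross-link it, and ADAMTS and MMP proteases cut it. Integrins are pairs of an alpha and a beta subunit that span the cell membrane and tie the matrix to the cytoskeleton. In liver, hepatic stellate cells and portal fibroblasts make most fibrillar collagen while hepatocytes secrete plasma fibronectin, and in muscle the fibroblasts of the endomysium and perimysium make most of the matrix.

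The members comprised 7 collagens, 4 basement membrane genes, 8 glycoprotein and microfibril genes, 3 cross-linking enzymes, 6 proteases, 7 integrin subunits and ITGB1BP1, a cytoplasmic protein that binds the tail of an integrin and was found through its symbol. The liver libraries held 22758137 to 24667728 counts and the muscle libraries 23677247 to 25626474. Values are counts scaled to library size (CPM) with TMM factors of each organ, and per-calf values are given in the order 3208, 3209, 5833 and 5841 for IVP and 3217, 3218, 5932 and 3213 for MOET. The counts had been adjusted for age before deposition. Over genes with a mean above 200 counts, calf 3213 deviated from the mean of its group by a median of 0.0176 log2 units in liver, where counting noise gives 0.0379, and of 0.0114 in muscle, where it gives 0.0416. It was not counted as a separate calf in means, SDs and statements on overlap (n = 4 IVP and n = 3 MOET). It did enter the fits. The hepatocyte genes APOA1, TTR and APOB summed to 5247 to 9655 CPM in liver and to 0.972 to 36.8 CPM in muscle, and the fibre genes ACTA1, MYH2 and MYH7 summed to 95964 to 125455 CPM in muscle and to at most 0.367 CPM in liver.

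The organs were first compared for each matrix gene over both embryo origins. Of the 36 members, 32 differed at a false discovery rate (FDR) under 0.05 by edgeR's quasi-likelihood test, 13 higher in muscle and 19 higher in liver, in a fit where 83.9% of 15237 genes were called, 39.4% higher in muscle and 44.5% higher in liver. The chains of type I and type III collagen, the fibrillins and perlecan were higher in muscle. CPM means below use scaling factors of each organ alone, whereas the fit scales all 16 libraries together. Ratios of these means therefore differ from the fitted log2 differences. COL1A1, a chain of type I collagen, had a mean of 96.9 CPM in liver and 329 CPM in muscle, with a fitted log2 difference of 2.44 ± 0.14 (SE, FDR 5.81e-11). COL1A2, its partner chain, differed by 2.11 ± 0.10, FBN1, the main fibrillin of microfibrils, by 2.00 ± 0.09, and HSPG2, perlecan, by 1.77 ± 0.18. THBS4, a thrombospondin of muscle and tendon, was nearly absent from liver with 0 to 10 counts per library and reached 61.7 CPM in muscle. COL8A2, a short-chain collagen, had 0.245 CPM in liver and 8.48 CPM in muscle. COL12A1 and COL14A1, which associate with fibrils, were higher in liver (-2.05 ± 0.22 and -1.82 ± 0.10). The largest differences in the other direction were those of LAMB3, the beta chain of laminin-332, with 156 CPM in liver and 2.67 CPM in muscle (log2 difference -5.20 ± 0.17), TNC, tenascin C (-5.07 ± 0.27), and FN1, fibronectin, with 2490.2 CPM in liver and 54.96 CPM in muscle (-4.81 ± 0.14).

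Other liver-rich members were ITGA4, an integrin subunit of leukocytes (log2 difference -3.77), THBS2, a matricellular thrombospondin (-3.62), MMP19, a metalloprotease (-3.45), and ADAMTS5, an aggrecanase (-2.65). Integrin subunits did not share a side. ITGA3, a laminin receptor subunit, was higher in muscle (2.15 ± 0.13), whereas ITGA1 and ITGA2, collagen receptor subunits, were higher in liver (-1.27 and -2.08). COL5A2, ITGA8, LOX and ADAMTS17 did not pass. These differences depend on the scaling between organs, whose factors lay between 1.09 and 1.44 in liver and 0.734 and 0.877 in muscle. Without scaling factors the median of all genes moved from -0.10 to -0.78, and the calls of LOXL2 (0.12, FDR 0.336) and NID2 (-0.07, FDR 0.630) were lost. ADAMTS17 (-1.13, FDR 0.00503), LOX (-0.97, FDR 0.00237) and COL5A2, which turned from 0.24 to -0.46 (FDR 0.00766), were called, and the value of ITGA8 turned from 0.49 to -0.18 without a call.

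**Figure D1:**
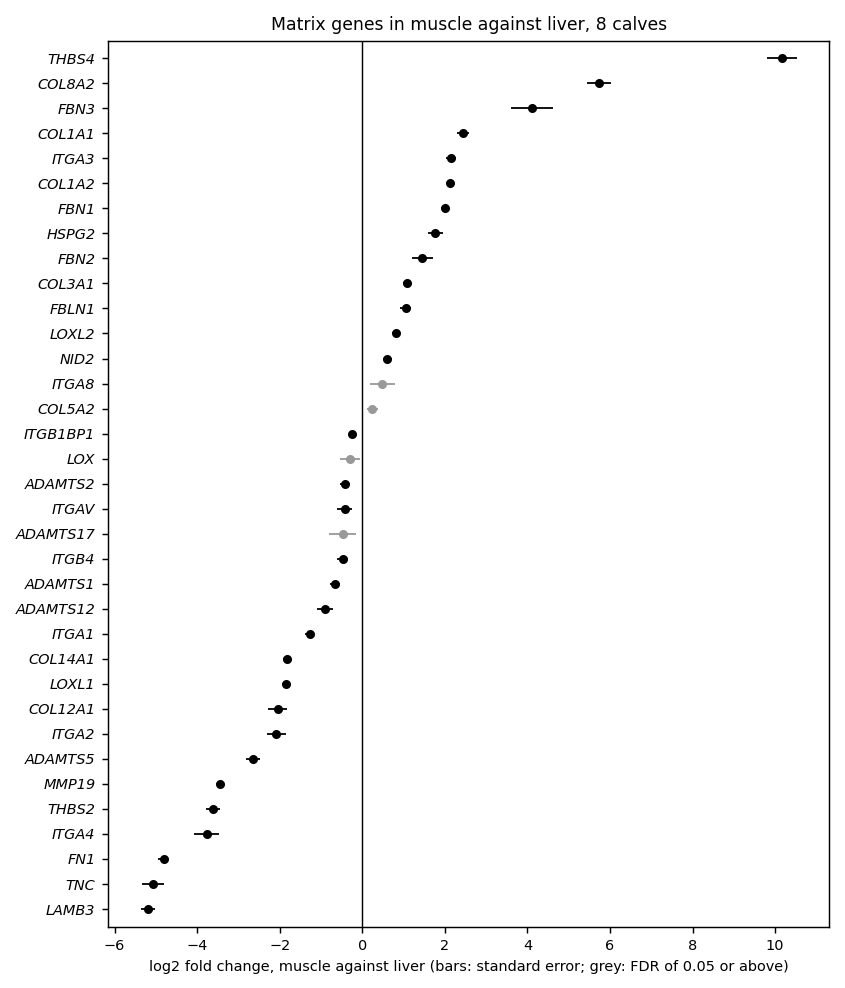
Fitted log2 fold change of 35 of the 36 matrix genes in muscle against liver over 8 calves, with its standard error (edgeR, 16 libraries). Black points passed an FDR of 0.05 and grey points did not, and the values run from -5.20 for LAMB3 to 10.16 for THBS4.

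The next comparison asks whether the matrix genes of liver differed between IVP and MOET calves. Most had lower counts in IVP calves, among them every collagen, basement membrane gene and integrin subunit that could be tested, while TNC and the protease ADAMTS1 were higher. No member passed an FDR of 0.05 in this fit with age as covariate, where 0.035% of 14290 genes were called, 5 genes. Of the 36 members, 31 passed the filter on low counts and COL8A2, FBN2, FBN3, THBS4 and ITGA8 did not. Of the 31, 24 were lower in IVP calves and 7 were higher. An unadjusted p under 0.05 was reached by 24 members, 22 lower and 2 higher, against 29.8% of all genes, of which 15% lower and 14.8% higher. The lowest and highest FDR among the 31 were 0.108 and 0.873, and the median log2 fold change was -0.55 beside -0.004 over all genes.

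These counts are not independent of how the members could be named. The names come from tables of genes that had been selected on the same libraries, and 24 members are listed because of liver RNA, alone or combined with methylation, in the copies used here. Since these copies are shortened, the 12 others may have been selected as well. Of them, 8 were tested, 6 were lower, 4 of them with an unadjusted p under 0.05 (COL1A1, ADAMTS2, ADAMTS12 and LAMB3), and the median was -0.47. The number of calls also turned on the fit. Without the age term 19 members were called (background 21%), and by DESeq2 with the age term 15 (background 11%), 14 lower and 1 higher. Calf 3213, which deviated from its group by less than counting noise gives, entered the fit without age as a full replicate. With this calf and the age term both left out, 0 members were called (5 of 14416 genes). The 2 IVP and 2 MOET calves of the same cow and sire gave 25 lower of 31 tested, 30 with the direction of the whole comparison. There were 0 calls (background 0.132%), with 16 at an unadjusted p under 0.05 (background 17.3%). The median log2 fold change was smaller in these calves, -0.37 beside -0.55 in the whole comparison. With the donor cow as covariate 0 members were called (1 of 14290 genes). An unadjusted p under 0.05 was reached there by 16 members, beside 2632 of all genes.

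All 6 collagens tested in liver had a lower mean in IVP calves, and each reached an unadjusted p under 0.05. COL12A1, a collagen that coats fibril surfaces (ENSBTAG00000020056), had 8.92, 5.42, 5.54 and 2.996 CPM in the IVP calves and 22.6, 13.1, 21.6 and 17.4 CPM in the MOET calves. Each IVP calf was below each MOET calf, and the log2 fold change of -1.71 ± 0.33 (SE) was the lowest of any member in liver (FDR 0.125). COL5A2, a chain of the type V collagen inside fibrils (ENSBTAG00000027020), had 23.7, 19.3, 17.1 and 11.1 CPM in the IVP calves and 40.4, 30.7, 35.2 and 33.5 CPM in the MOET calves (-0.97 ± 0.23). COL1A2 (ENSBTAG00000013472) had 48.5, 47.05, 39.2 and 36.1 CPM in the IVP calves and 69.5, 68.8, 78.5 and 72.2 CPM in the MOET calves, which again did not overlap (-0.75 ± 0.14, FDR 0.125). COL3A1, type III collagen (ENSBTAG00000021466), had 356, 343, 256 and 292 CPM in the IVP calves and 453, 449, 468 and 458 CPM in the MOET calves (-0.55 ± 0.14). Calf 5833 had the lowest values of both COL3A1 and COL1A1. COL1A1 (ENSBTAG00000013103) had 91.4, 90.3, 58.8 and 82.1 CPM in the IVP calves and 93.4, 127, 136 and 118 CPM in the MOET calves, so that MOET calf 3217 lay just above the IVP calves (-0.55 ± 0.19). COL14A1, another fibril-associated collagen, had 44.4, 47.3, 45.7 and 37.5 CPM in the IVP calves and 62.4, 46.04, 62.6 and 57.3 CPM in the MOET calves, and its groups overlapped (-0.37 ± 0.15).

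Basement membrane genes were lower in the same way. NID2, nidogen 2, which links laminin to type IV collagen (ENSBTAG00000021945), had 19.6, 17.04, 14.8 and 11.5 CPM in the IVP calves and 32.6, 28.4, 31.5 and 30.1 CPM in the MOET calves (-0.95 ± 0.18, FDR 0.125). HSPG2, perlecan, had 54.9, 35.9, 40.1 and 17.6 CPM in the IVP calves and 84.7, 56.5, 85.7 and 67.6 CPM in the MOET calves (-0.99 ± 0.33). Both were lowest in IVP calf 5841, whose perlecan value was under those of the other IVP calves. LAMB3 (ENSBTAG00000016542) had 113, 130.5, 144 and 84.4 CPM in the IVP calves and 187, 152, 283 and 202 CPM in the MOET calves (-0.79 ± 0.24, FDR 0.126).

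Among the glycoproteins, FN1 (ENSBTAG00000008300) had 2105, 2012, 2342 and 1523 CPM in the IVP calves and 3247, 2969.9, 3232 and 3127 CPM in the MOET calves. Its mean was 1996 ± 344 CPM in IVP calves (SD, n = 4) and 3149.6 ± 156 CPM in MOET calves (SD, n = 3), without overlap, and the log2 fold change was -0.64 ± 0.17 (SE, FDR 0.125). FBN1 had 16.5, 15.1, 15.4 and 15.4 CPM in the IVP calves and 23.9, 19.04, 21.7 and 21.9 CPM in the MOET calves (-0.47 ± 0.12). FBLN1, fibulin 1, a glycoprotein of basement membranes and elastic fibres, had 10.7, 9.19, 8.98 and 9.82 CPM in the IVP calves and 10.8, 13.99, 13.2 and 12.8 CPM in the MOET calves (-0.39 ± 0.14). The groups of these 3 genes did not overlap. TNC (ENSBTAG00000000575), which in adult tissue is made mainly at sites of remodelling, stood on the other side with 101, 52.1, 65.5 and 38.4 CPM in the IVP calves and 42.7, 23.9, 41.6 and 33.8 CPM in the MOET calves. IVP calf 5841 lay among the MOET calves, and the log2 fold change was 0.86 ± 0.33 (unadjusted p 0.0295, FDR 0.139). THBS2 did not reach an unadjusted p of 0.05 (-0.44 ± 0.20, p 0.0534).

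LOX, which cross-links collagen and elastin, had 1.31, 0.954, 0.545 and 0.5402 CPM in the IVP calves and 3.32, 1.88, 2.52 and 2.37 CPM in the MOET calves from 11 to 80 counts per library (-1.59 ± 0.35, FDR 0.125). LOXL2, a lysyl oxidase of type IV collagen (ENSBTAG00000006214), had 8.76, 8.06, 7.26 and 6.58 CPM in the IVP calves and 11.6, 9.71, 11.1 and 10.8 CPM in the MOET calves (-0.48 ± 0.15), and neither gene's groups overlapped. LOXL1, which acts on elastic fibres, had 42.4, 40.2, 41.5 and 46.4 CPM in the IVP calves and 40.9, 40.05, 39.9 and 40.96 CPM in the MOET calves and a log2 fold change of 0.07 ± 0.11 (p 0.497).

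The proteases did not share a direction, 2 being lower and 4 higher. ADAMTS1, which cleaves versican and other proteoglycans (ENSBTAG00000000706), had 70.00, 50.2, 71.7 and 66.2 CPM in the IVP calves and 32.2, 35.2, 34.3 and 34.2 CPM in the MOET calves. Every IVP calf was above every MOET calf, and with a log2 fold change of 0.93 ± 0.15 it had the lowest FDR of the members in liver, 0.108. ADAMTS2, the procollagen N-proteinase, had 21.7, 18.04, 13.6 and 16.6 CPM in the IVP calves and 27.5, 19.7, 27.3 and 24.9 CPM in the MOET calves (-0.50 ± 0.19), and ADAMTS12 had 3.77, 2.56, 2.13 and 1.67 CPM in the IVP calves and 5.23, 2.94, 5.03 and 4.14 CPM in the MOET calves (-0.77 ± 0.31), both with overlap. The values of ADAMTS5, MMP19 and ADAMTS17 were 0.49, 0.22 and 0.10, each with an unadjusted p above 0.05.

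All 6 integrin subunits tested were lower in IVP liver, 5 with an unadjusted p under 0.05 and without overlap. ITGAV, the alpha V subunit that binds fibronectin and latent TGF-beta (ENSBTAG00000019929), had 3.77, 2.82, 2.45 and 1.42 CPM in the IVP calves and 8.47, 5.26, 10.3 and 7.299 CPM in the MOET calves (-1.58 ± 0.33, FDR 0.125). ITGA4 had 3.19, 2.64, 2.72 and 2.21 CPM in the IVP calves and 5.73, 4.08, 5.72 and 5.17 CPM in the MOET calves (-0.93 ± 0.20). Calf 5841 again had the lowest IVP value of both. ITGA1 (ENSBTAG00000016525) had 9.66, 8.98, 8.17 and 7.22 CPM in the IVP calves and 14.8, 12.3, 12.3 and 13.1 CPM in the MOET calves (-0.62 ± 0.15), and ITGA2 had 2.78, 2.69, 2.18 and 2.16 CPM in the IVP calves and 4.53, 3.22, 3.93 and 3.91 CPM in the MOET calves (-0.66 ± 0.20). ITGA3 (ENSBTAG00000019498) had 3.85, 2.602, 3.77 and 2.701 CPM in the IVP calves and 4.36, 5.99, 4.16 and 4.77 CPM in the MOET calves (-0.57 ± 0.22). ITGB4, the partner of the alpha 6 subunit in hemidesmosomes, had a log2 fold change of -0.25 ± 0.19 and overlapping groups. ITGB1BP1 had 19.9, 21.4, 20.8 and 23.1 CPM in the IVP calves and 17.6, 19.98, 16.2 and 18.1 CPM in the MOET calves (0.24 ± 0.12, p 0.0834). Over the 31 tested members, 19 had every IVP calf below the MOET calves against 16.7% of all genes, and 3 had every IVP calf above against 16.4%.

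**Figure D2:**
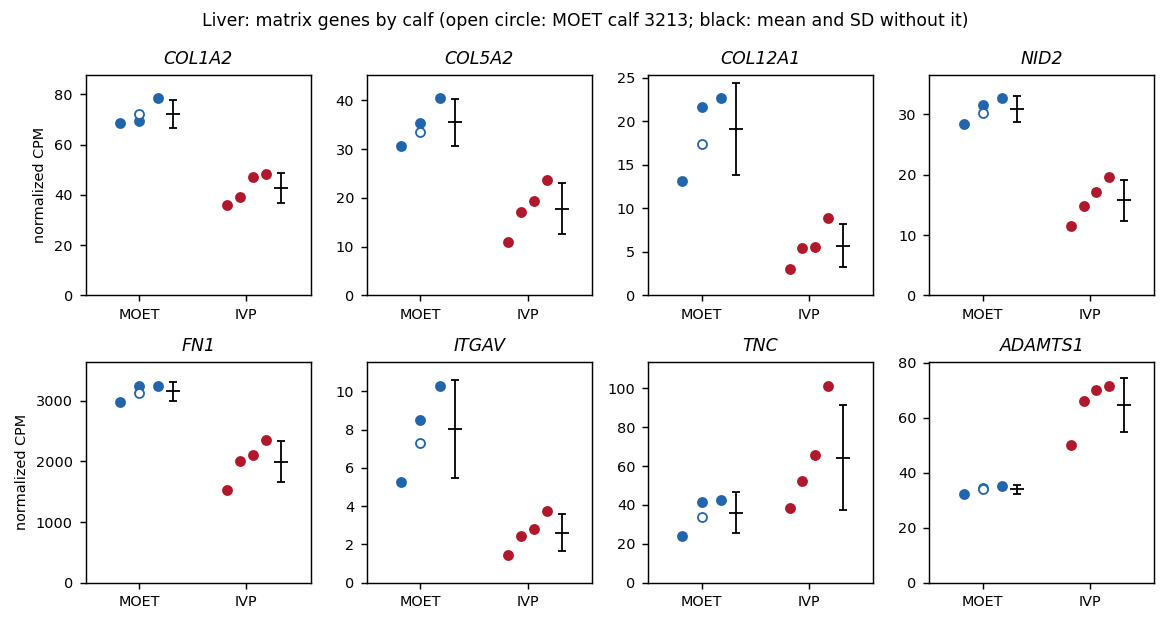
Normalized CPM of 8 matrix genes in liver, each point 1 calf (blue MOET, red IVP, sorted from low to high, axes from 0). Calf 3213 is the open circle, and the black mark gives mean and SD without it (n = 3 MOET, n = 4 IVP). IVP points lie below MOET points for COL1A2, COL5A2, COL12A1, NID2, FN1 and ITGAV, above them for ADAMTS1, and overlap for TNC.

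The liver differences were not the same size in every IVP calf. The mean of log2(CPM + 1) over the 31 members was 4.12 ± 0.168 in IVP calves (SD, n = 4) and 4.57 ± 0.111 in MOET calves (SD, n = 3). It was 4.34, 4.14, 4.09 and 3.93 in calves 3208, 3209, 5833 and 5841. Calf 5841 had the lowest IVP value for 17 of the 24 lower members. Its liver also stood apart beyond the matrix genes. Over genes with a mean above 200 counts it deviated from its group by a median of 0.361 log2 units. The other IVP livers deviated by 0.104 to 0.238. Markers of other cells were measured beside the matrix values. They too could be named only through tables of genes selected on the same libraries, so their differences are not independent of the naming. The endothelial genes CDH5, VWF and CLEC14A, 3 of 9 that could be named, summed to 107 to 113 CPM in IVP and 111 to 141 CPM in MOET liver, with CDH5 and VWF lower and CLEC14A higher. The macrophage gene CSF1R, 1 of 6, had 176 to 206 CPM in IVP and 154 to 169 CPM in MOET liver. The hepatocyte genes, 3 of 6, summed to 7132 to 9655 CPM in IVP and 5247 to 6080 CPM in MOET calves, with APOA1 and TTR higher and APOB lower. Their part in the matrix values was not tested, and fewer cells of a type and less RNA per cell cannot be told apart in whole tissue. None of the 7 fibroblast and stellate cell markers or the 4 bile duct markers could be named.

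The same comparison in muscle gave differences in both directions. The type I and type III collagen chains, fibronectin and LAMB3 were lower in IVP calves, while TNC, THBS4, FBLN1, LOXL2 and the integrin subunits ITGA1 and ITGA3 were higher. Again no member passed an FDR of 0.05, where 0.467% of 12854 genes were called. At an FDR under 0.1, which 3.29% of all genes reached, there were 6 members, LAMB3, COL1A1 and COL3A1 lower and THBS4, TNC and ITGA1 higher. Of the 36 members 32 were tested, with 13 lower and 19 higher. An unadjusted p under 0.05 was reached by 14, 7 lower and 7 higher, against 19.8% of all genes, of which 8.43% lower and 11.4% higher. The median log2 fold change was 0.08 beside 0.02 over all genes. These counts are not independent of the naming either. The shortened naming tables list 11 members because of muscle data. Of these, 9 had an unadjusted p under 0.05, and 4 an FDR under 0.1 (COL1A1, COL3A1, THBS4 and ITGA1). Of the 25 others 21 were tested, 5 with an unadjusted p under 0.05, beside the 19.8% of all genes, and 2 with an FDR under 0.1.

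The calls in muscle turned on the fit as well. Without the age term 10 members were called, 5 in each direction (background 9.13%), and by DESeq2 with the age term 6, 3 in each direction (background 3.62%). With calf 3213 and the age term both left out, 0 were called (83 of 13098 genes). Without the filter on low counts there were 4 (background 0.91%) and without scaling factors 1, THBS4 (FDR 0.0414, background 0.475%). Among the calves of the same cow and sire 29 of 32 kept the direction, with 0 calls (background 0.163%) and 9 members at an unadjusted p under 0.05 (background 14.6%). With the donor cow as covariate 0 members were called (19 of 12854 genes). An unadjusted p under 0.05 was reached there by 13 members, beside 2213 of all genes.

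COL1A1 in muscle had 201, 328, 247 and 223 CPM in the IVP calves and 380.3, 440.1, 486 and 438 CPM in the MOET calves. The mean was 249.9 ± 55.5 CPM in IVP calves (SD, n = 4) and 435 ± 53.1 CPM in MOET calves (SD, n = 3), each IVP calf lay below each MOET calf, and the log2 fold change was -0.79 ± 0.17 (SE, FDR 0.0694). COL3A1 had 347, 469, 419.9 and 363 CPM in the IVP calves and 535, 629, 687 and 622 CPM in the MOET calves (-0.62 ± 0.15, FDR 0.0845). COL1A2 had 122, 149, 137 and 109.8 CPM in the IVP calves and 153, 174, 193 and 175 CPM in the MOET calves (-0.41 ± 0.13, FDR 0.144). The type I and type III chains were thus lower in IVP calves in both organs in value. COL8A2 had 6.94, 7.54, 3.74 and 6.63 CPM in the IVP calves and 8.33, 8.01, 18.2 and 11.3 CPM in the MOET calves, with IVP calf 5833 lowest and MOET calf 5932 highest (-0.88 ± 0.31). Among the calves of the same cow and sire its value was -0.17. COL12A1, the collagen with the lowest fold change in liver, had 2.33, 1.703, 1.85 and 1.22 CPM in the IVP calves and 0.958, 1.43, 1.72 and 1.32 CPM in the MOET calves and overlapping groups (0.40 ± 0.28). COL5A2 and COL14A1 had log2 fold changes of 0.04 and 0.05.

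LAMB3 had 1.51, 2.38, 2.14 and 1.58 CPM in the IVP calves and 3.91, 3.65, 3.48 and 3.71 CPM in the MOET calves. Its groups did not overlap and it had the lowest FDR of the members in muscle (-0.94 ± 0.19, FDR 0.064), at 37 to 94 counts per library. HSPG2 had 83.5, 111, 143 and 112 CPM in the IVP calves and 114, 104, 116 and 109.7 CPM in the MOET calves (0.02 ± 0.16), and NID2 a log2 fold change of -0.01 ± 0.13. FN1 had 38.1, 54.5, 52.1 and 43.9 CPM in the IVP calves and 64.1, 54.2, 77.8 and 65.6 CPM in the MOET calves (-0.46 ± 0.15, FDR 0.147). FBN2, a fibrillin of developing tissue, was measured at 0.368 to 0.654 CPM in IVP calves and 0.708 to 1.43 CPM in MOET calves (-1.19 ± 0.33), from 9 to 34 counts per library.

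THBS4 (ENSBTAG00000012866) had 90.3, 55.01, 97.3 and 78.2 CPM in the IVP calves and 44.5, 42.7, 23.6 and 35.5 CPM in the MOET calves. The mean was 80.2 ± 18.6 CPM in IVP calves (SD, n = 4) and 36.9 ± 11.6 CPM in MOET calves (SD, n = 3), with no overlap, and the log2 fold change was 1.11 ± 0.24 (SE, FDR 0.0693). TNC had 1.84, 1.41, 2.36 and 0.773 CPM in the IVP calves and 0.458, 0.629, 0.411 and 0.469 CPM in the MOET calves, from 11 to 65 counts per library and without overlap (1.72 ± 0.40, FDR 0.0755). FBLN1 had 18.8, 13.6, 23.8 and 13.3 CPM in the IVP calves and 9.53, 14.7, 11.3 and 11.6 CPM in the MOET calves, with overlap (0.57 ± 0.22). The other glycoproteins, FBN1, FBN3 and THBS2, had values of 0.10, 0.13 and 0.27, each with an unadjusted p above 0.05. LOXL2 had 11.1, 11.2, 13.5 and 10.2 CPM in the IVP calves and 8.53, 9.72, 7.47 and 8.57 CPM in the MOET calves, all IVP calves above the MOET calves (0.43 ± 0.14, FDR 0.14). LOX and LOXL1 had values of -0.25 and 0.23. Among the proteases ADAMTS12 had 1.55, 1.06, 1.42 and 1.44 CPM in the IVP calves and 0.666, 1.01, 1.05 and 0.895 CPM in the MOET calves (0.59 ± 0.26) and ADAMTS2 6.94, 10.3, 9.74 and 8.47 CPM in the IVP calves and 10.2, 9.98, 11.9 and 10.7 CPM in the MOET calves (-0.27 ± 0.15), and ADAMTS1, high in IVP liver, had a value of 0.38 ± 0.22 with overlap.

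The 5 integrin subunits tested in muscle all had a positive log2 fold change. ITGA1 had 3.51, 3.11, 3.78 and 4.16 CPM in the IVP calves and 1.87, 1.68, 2.54 and 2.05 CPM in the MOET calves, without overlap (0.83 ± 0.20, FDR 0.0817). ITGA3 had 13.6, 11.5, 15.2 and 11.7 CPM in the IVP calves and 10.6, 9.56, 7.398 and 9.08 CPM in the MOET calves, also without overlap (0.51 ± 0.15, FDR 0.123). ITGB4, ITGAV and ITGA2 had values of 0.39, 0.32 and 0.15, and the unadjusted p of each was above 0.05. ITGB1BP1 had 10.1, 10.2, 10.7 and 10.2 CPM in the IVP calves and 9.99, 10.7, 10.4 and 10.4 CPM in the MOET calves (-0.01 ± 0.10). Over the 32 tested members, 7 had every IVP calf below the MOET calves against 8.67% of all genes and 6 had every IVP calf above against 10.4%.

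**Figure D3:**
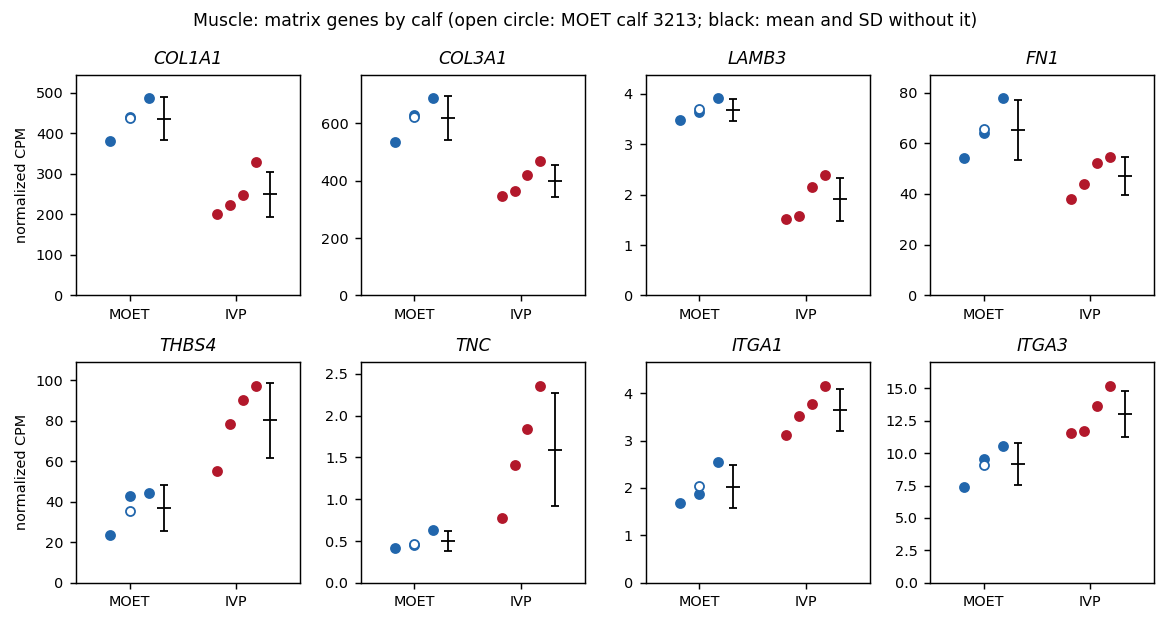
Normalized CPM of 8 matrix genes in muscle, each point 1 calf (blue MOET, red IVP, sorted from low to high, axes from 0). Calf 3213 is the open circle, and the black mark gives mean and SD without it (n = 3 MOET, n = 4 IVP). IVP points lie below MOET points for COL1A1, COL3A1 and LAMB3, above them for THBS4, TNC, ITGA1 and ITGA3, and FN1 overlaps by 1 calf.

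Several markers differed between the muscle groups beside these genes. They were named through the same tables of selected genes, with CDH5 and MYH7 listed because of muscle data. The 3 endothelial genes summed to 104 to 169 CPM in IVP and 91.1 to 99.6 CPM in MOET muscle, and CDH5 had a log2 fold change of 0.72 ± 0.17 (FDR 0.0782). Of the fibre genes, MYH7, the slow myosin heavy chain, had 5675, 4995, 14706 and 9132 CPM in the IVP calves and 3881, 2440.3, 1860.4 and 2463 CPM in the MOET calves (1.65 ± 0.40, FDR 0.0846), and MYH2, a fast oxidative one, had a log2 fold change of 0.79 ± 0.23, while ACTA1 had -0.29 ± 0.32. IVP calf 5833 had the highest value of MYH7 and of CDH5, and the highest IVP value for 17 of the 32 members, TNC, THBS4, FBLN1 and ITGA3 among them. The hepatocyte gene TTR had 34.1 CPM in IVP calf 3209, 2.10 to 3.92 CPM in the other IVP calves and 0.341 to 0.754 CPM in the MOET calves, and APOB was at 0 in all 8 muscle libraries. CSF1R had 4.74 to 10.9 CPM in IVP and 7.54 to 9.18 CPM in MOET muscle. The part of these markers in the matrix values was not tested. None of the 2 satellite cell or 3 adipocyte markers could be named.

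**Figure D4:**
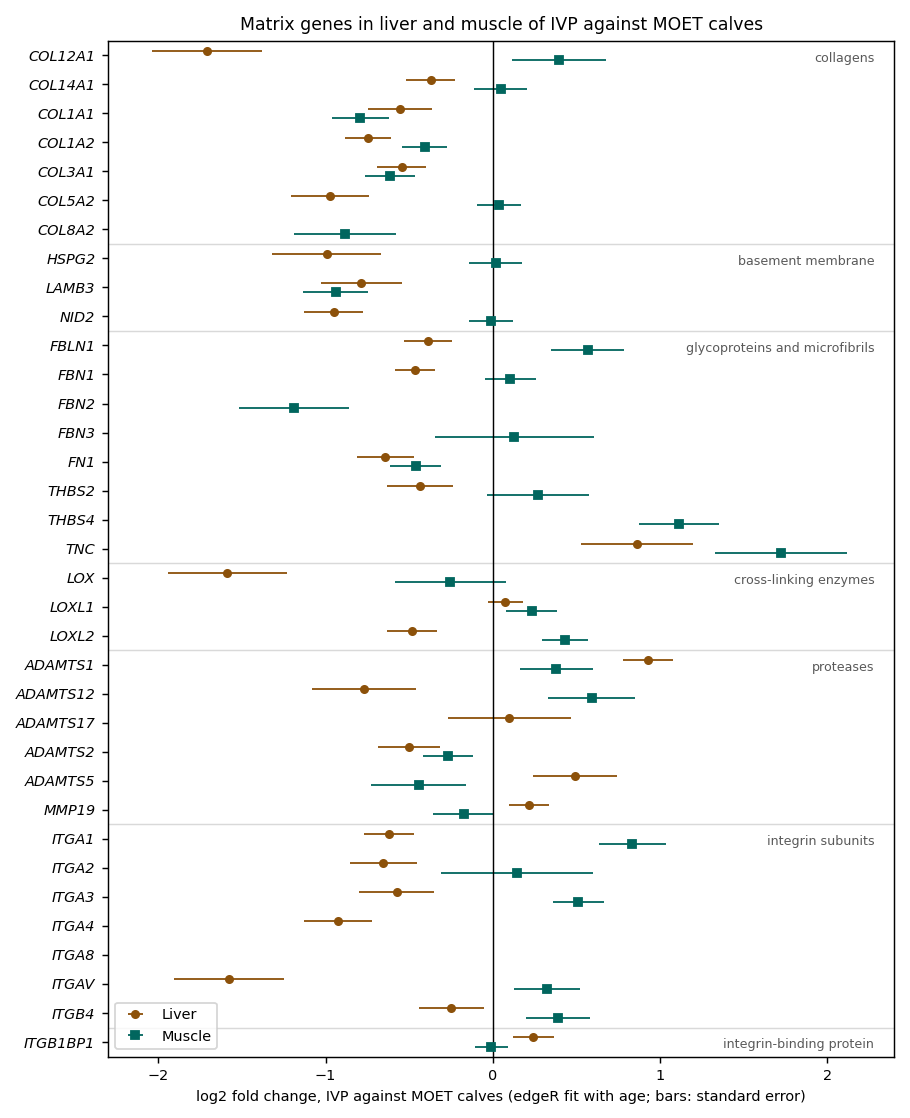
Fitted log2 fold change of IVP against MOET calves with its standard error for 35 of the 36 matrix genes, in liver (brown circles) and muscle (green squares), grouped by role. A gene without a point in an organ did not pass the filter there, and ITGA8 passed in neither. Liver points lie left of 0 for collagens, basement membrane genes and integrin subunits, and muscle points of integrin subunits lie right of 0.

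The difference between the organs in the effect of embryo origin was tested in 1 fit over the 16 libraries. It was positive for a gene whose IVP minus MOET value was higher in muscle than in liver. Of the 36 members 26 were positive, and 8 passed an FDR of 0.05, all positive, in a fit where 8.99% of 15237 genes were called (4.74% positive and 4.25% negative). All 8 are among the 24 members listed for liver RNA, of which 20 were positive, with a median of 0.86. The 12 others had 6 positive, 6 negative and 0 called, with a median of 0.007. ITGA1, ITGA3 and LOXL2 are also listed because of muscle data. The counts for this difference are thus not independent of how the members could be named. The 8 called were 4 integrin subunits, 2 collagens, nidogen 2 and LOXL2. Of these, ITGA8 passed the filter only through the groups where it was high. ITGA1 differed by 1.42 ± 0.24 (SE, FDR 0.0201), from -0.62 in liver to 0.83 in muscle. ITGAV differed by 1.87 ± 0.41 (FDR 0.0304) and ITGA3 by 1.05 ± 0.27 (FDR 0.0379). COL12A1 differed by 2.07 ± 0.47 (FDR 0.0335) and COL5A2 by 0.98 ± 0.29 (FDR 0.0472). For both collagens the value in liver was below 0 and that in muscle was near or above it with overlapping groups. LOXL2 differed by 0.88 ± 0.21 (FDR 0.034).

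ITGA8, the alpha 8 subunit of contractile mesenchymal cells (ENSBTAG00000007602), was too low for the tests in single organs. It had 7, 5, 5 and 2 counts in the IVP calves and 14, 8, 15 and 12 counts in the MOET calves in liver, and 13, 8, 17 and 12 counts in the IVP calves and 4, 6, 8 and 1 counts in the MOET calves in muscle. IVP calves were the lower group in liver and the higher one in muscle, with a difference of 2.13 ± 0.58 (FDR 0.0395). Only MOET liver and IVP muscle libraries reached the minimum count of 10. The filter thus kept ITGA8 through the groups that make this difference, and its call is not independent of the filter. Each calf gave both organs, and in the fit that blocks on the calf 6 members passed (background 4.68%) while ITGA8 (FDR 0.0578) and NID2 (0.91 ± 0.23, FDR 0.0367 without and 0.0562 with the block) did not. With 1 calf left out, the number called rose or fell among the members and over all genes alike. There were 12, 11 and 10 members called without calf 3208, 3213 or 5841. Over all genes these fits called 2514 of 15376, 2164 of 15377 and 1608 of 15368. Leaving out MOET calf 3217, 3218 or 5932 left 0 members called (background 0.0065%, 0% and 0%), with 12, 15 and 13 at an unadjusted p under 0.05, and leaving out IVP calf 3209 or 5833 left 1, ITGA1 (background 0.28% and 0.501%). The values stayed positive for all 8 members when any 1 calf was left out, with 1.26 to 1.63 for ITGA1, 1.69 to 2.04 for ITGAV and 1.72 to 2.33 for COL12A1.

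The members tested in both organs numbered 28. Of these, 8 were lower in IVP calves in both organs, 3 were higher in both, 14 were lower in liver and higher in muscle, and 3 the reverse. COL1A1, COL1A2, COL3A1, FN1 and LAMB3 were lower in both with an unadjusted p under 0.05 in each, and TNC was higher in both. Their differences between the organs did not pass (0.84 ± 0.60 for TNC, 0.31 ± 0.20 for COL1A2, -0.27 ± 0.28 for COL1A1, -0.10 ± 0.22 for COL3A1, 0.15 ± 0.26 for FN1 and -0.19 ± 0.33 for LAMB3), which does not show equal effects. Without scaling factors the differences of COL3A1 and LAMB3 became 0.11 and 0.05. ADAMTS12, FBLN1, ITGA1, ITGA3 and LOXL2 were lower in liver and higher in muscle with an unadjusted p under 0.05 in each organ. For ADAMTS12 and FBLN1 the difference had an FDR of 0.0595 and 0.0546, and that of FBLN1 passed without scaling factors (FDR 0.0428).

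Other genes of the matrix and of adhesion were taken from lists of which 14 of 31 matrix proteins, 3 of 14 collagen processing genes, 10 of 21 adhesion adaptors, 2 of 9 other receptors and 3 of 13 TGF-beta genes could be named, so the counts cover only part of each list. The names came from the same tables of genes selected on these libraries, so the counts are not independent of the naming. Of the 14 matrix proteins 10 were lower in IVP liver, 5 of these with an unadjusted p under 0.05 (15% of all genes), and none was called (background 0.035%). In muscle 12 were tested, 5 higher and 7 lower, and SPARCL1, a matricellular protein of vessels, was called (background 0.467%). It had 111, 88.1, 119 and 111 CPM in the IVP calves and 66.6, 57.00, 59.7 and 61.04 CPM in the MOET calves in muscle (0.81 ± 0.13, FDR 0.0272) against -0.47 ± 0.14 in liver. The proteoglycan DCN had log2 fold changes of -0.00 in liver and -0.47 in muscle. The difference between organs was called for SPARCL1, HMCN1 and ASPN, all positive (background 8.99%), and ASPN did not pass with the calf as block (FDR 0.041 without and 0.0505 with it).

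BMP1, the procollagen C-proteinase, was called lower in IVP muscle with 13.2, 18.8, 15.6 and 16.8 CPM in the IVP calves and 31.5, 29.5, 34.9 and 32.2 CPM in the MOET calves (-0.99 ± 0.13, FDR 0.00973), the organ in which COL1A1 and COL3A1 had an FDR under 0.1. Like SPARCL1, BMP1 is listed in the naming tables because of muscle data, so its call there is not independent of the naming. In liver its value was -0.06 ± 0.13. P4HA1, a prolyl hydroxylase subunit, and PPIB, a proline isomerase, were not called in either organ (background 0.035% in liver and 0.467% in muscle). Of the 3 genes the difference between organs was called for BMP1 (background 8.99%). Of the 10 adhesion adaptors, 8 were lower in IVP liver and 8 higher in IVP muscle in value, none called beside the same backgrounds. The difference between the organs was called for DOCK1 (0.66 ± 0.17) and RAC1 (-0.68 ± 0.20), where 8.99% of all genes were called. With the calf as block neither passed (FDR 0.0637 and 0.0871). VCL, vinculin, had -0.63 in liver and 0.04 in muscle. The receptors CD47 and SDC1 had values of -0.30 and 0.03 in liver, and CD47 0.30 in muscle. TGFB3, TGFBR1 and SMAD3 were lower in IVP liver (-0.50, -1.56 and -0.74) and higher in IVP muscle (0.46, 0.25 and 0.51), none called there or for the difference. With the calf as block the difference of TGFBR1 passed (FDR 0.0638 without and 0.0465 with it, background 4.68%). It rests on 1 to 24 counts per muscle library, the lowest in MOET calf 3213.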

How the data were processed

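The authors sequenced unstranded, polyadenylated RNA, filtered it with SOAPnuke, aligned it with STAR to bosTau9 and counted reads per Ensembl gene with HTSeq-count. They adjusted the counts for age with sva by a model not given in the sources used here. The deposited values, whole numbers for 27607 genes, were treated as estimated counts. Plain counts had been assumed, and rounding changed no value. Overlapping genes can share reads. No row is a total. Library totals are given in the report.

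Members and lists were chosen with earlier results of these data known. Names came from supplementary tables of the study, partly shortened copies that list genes selected on these libraries, so no overlap was tested. Per-calf values are given for members with an unadjusted p under 0.05 or an FDR under 0.1 in an organ and for the largest rise and fall of each role, at a mean of at least 1 CPM, and 8 genes, by role, were plotted per organ. The values of 1 member are not reported here or plotted, but it is included in the counts. The authors' own comparisons and the methylation data were not used. Replicates are separate calves.

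In R 4.3.3, genes were kept with filterByExpr of edgeR 4.0.16 (minimum count 10, minimum total 15), scaled by TMM and tested by quasi-likelihood with the age of the calf as covariate, adjusted by Benjamini-Hochberg over all genes tested (FDR). The 16-library fit had 4 groups of organ and origin and age within organ. Alternatives were other or no scaling factors, no filter, DESeq2 1.42.0, no age term, donor cow, calves of the same parents, the calf as a block, and leaving out each calf. Figures were drawn with Python 3.11.15 and matplotlib 3.10.9. Each calf gave 1 library of each organ, which pairs them by design. The correlation of a calf's deviations in both organs ran from -0.155 to 0.285 and was over 0.1 in 2 of 8 calves.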

Additional observations from a re-analysis of the deposited data

Results flagged for a closer look

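In liver, IVP calf 5841 had 11.2 CPM of ADAMTS5 while the other 3 IVP calves had 6.304 to 6.489. In muscle IVP calf 3208 had 0.49 CPM of ADAMTS5, from only 12 counts, while the others had 0.545 to 0.5535, from 13 to 15 counts. These were the 2 values standing apart, by Dixon's criterion at 95%, among 63 groups of 4 IVP calves examined, of which chance gives about 1 in 20. The other flagged values are differences between organs in the effect of embryo origin, each past an FDR of 0.05 in edgeR's fit and higher in muscle on the log2 scale. They were 2.134 for ITGA8, 2.072 for COL12A1, 1.871 for ITGAV, 1.422 for ITGA1, 1.049 for ITGA3, 0.9798 for COL5A2, 0.9054 for NID2 and 0.8766 for LOXL2. ITGA8 had passed the filter only through the groups where it was high.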

How the results depend on the processing

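The number of members called at an FDR of 0.05 in liver was 0 in the reported fit (0.035% of all genes). It was 15 with DESeq2 (11%), 19 without the age term (21%) and 24 with DESeq2 without it (4657 of 14290 genes). With 1 calf left out it was 0 to 15. It was 15 without 3213 (2187 of 14416 genes), 12 without 5841 (1219 of 14500) and 2 without 3208 (101 of 14447). In muscle it was 4 without the filter on low counts (0.91% of all genes), 6 with DESeq2 (3.62%) and 10 without the age term (9.13%). It was 12 with DESeq2 without the age term (1619 of 12854 genes) and 1 without scaling factors (0.475%). With 1 calf left out it was 0 to 4, namely 4 without 3209 (350 of 13018 genes) and 1 without 5841 (33 of 12936). With calf 3213 and the age term both left out it was 0 in each organ, where 5 of 14416 and 83 of 13098 genes were called. An unadjusted p under 0.05 was reached there by 25 and 15 members, beside 4662 and 2666 of all genes. For the difference between the organs, 8 members were called in the reported fit (8.99% of all genes) and 15 without the age term (4050 of 15237 genes). With the calf as a replicate block there were 6 (4.68%). With 1 calf left out there were 0 to 12, the most without 3208 (2514 of 15376 genes). The block lost the differences of ITGA8 and NID2, gave COL5A2 a call between muscle and liver (FDR 0.0344) and changed no other call of a member. The cause was not tested. The members lower in IVP calves numbered 24 to 26 in liver and 12 to 15 in muscle with 1 calf left out. The organ calls numbered 31 to 34, beside 12479 to 13090 genes called over all genes. No direction was reversed for the 24 liver and 14 muscle members with an unadjusted p under 0.05 or the 8 differences, over 758 values. Without scaling factors, added after the data were seen, the liver median of all genes moved to -0.16 and that of the difference to 0.25, and LOXL1 and ADAMTS17 in liver and NID2 and ITGB1BP1 in muscle changed sign. With 4 calves a group, members under about 1 CPM rest on few counts.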

Other observations

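The balance of the fibril collagen genes was compared within libraries as ratios of counts, chosen after the values were seen. In muscle the ratio of COL1A1 to COL1A2 counts ran from 1.65 to 2.20 over the IVP calves and from 2.49 to 2.53 over the MOET calves. The mean was 1.92 ± 0.246 in IVP calves (SD, n = 4) and 2.51 ± 0.0180 in MOET calves (SD, n = 3). All IVP calves lay below the MOET calves, and the two-sided exact permutation test gave p = 0.0571, the smallest this design allows, and 0.114 after Benjamini-Hochberg adjustment over 4 tests. The ratio of COL3A1 to COL1A1 counts in muscle was 1.62 ± 0.134 in IVP calves (SD, n = 4) and 1.42 ± 0.0112 in MOET calves (SD, n = 3), with the same exact p of 0.0571 (0.114 adjusted). The groups barely separated, with 1.43 in IVP calf 3209 and 1.428 in MOET calf 3218. Both ratios contain COL1A1, so their tests are not independent. In liver the COL1A1 to COL1A2 ratio was 1.90 ± 0.316 in IVP and 1.64 ± 0.261 in MOET calves, and the COL3A1 to COL1A1 ratio 3.90 ± 0.337 and 3.95 ± 0.781, with exact p values of 0.286 and 0.914. The ratios of MOET muscle lay closer together than those of any other group.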
